A study of Mus musculus with 27 samples.

Results

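The subject is the genotype by injury interaction in mouse dorsal root ganglia: how far the response to sciatic nerve injury differed between Ptpn2 knockout (KO) and wild-type (WT) animals. It rests on 12 of the 27 libraries of the series, chosen by their labels, with 3 replicates in each of 4 groups: KO injured, KO sham, WT injured and WT sham. Dorsal root ganglia contain the somata of sensory neurons that send axons into the sciatic nerve, and the ganglia are labelled as L4-L5. Polyadenylated RNA of the whole tissue was sequenced after low-input amplification.

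KO injured ganglia carry the genotype label Ptpn2 KO and the treatment label sciatic nerve injury, and KO sham ganglia the label Ptpn2 KO with sham surgery. WT injured and WT sham ganglia carry the genotype label wt with the same treatments. Sample titles call the knockout "cko" and the sham groups "intact". Injured samples were taken 3 days after injury. The Cre driver, the cells that lost the gene in the ganglion, the age and sex of the mice and whether a replicate is 1 animal are not stated in the labels, so p-values measure the spread between these samples, which may be technical. No sham or injured group of the 4 was given a drug, per the labels.

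Ptpn2 encodes a tyrosine phosphatase that removes phosphate from Janus kinases and STAT proteins. Interferons bind receptors that carry Janus kinases, and these phosphorylate STAT proteins. Interferon gamma acts through a STAT dimer at TTCNNNGAA sites, and type I interferons through a complex of STAT proteins and IRF9 at interferon-stimulated response elements, which hold repeats of GAAA; the form searched is GAAA, any 2 bases and GAAA again. In the ganglion, nerve injury is known for switching sensory neurons to a growth state marked by genes such as Sprr1a, Atf3 and Npy, and for bringing in macrophages.

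The 57 genes with a larger response in KO ganglia, described below, moved together, so the 250 bases before their transcription start were searched for both motifs on both strands. Promoters were taken from RefSeq on GRCm38.p6 and matched by symbol for 37 of the 57 genes. That spaced GAAA pair was present in 19 of the 37 (51.4%), against 449 of the 13310 promoters of all genes tested (3.37%). TTCNNNGAA was present in 8 of the 37 (21.6%), against 961 of the 13310 (7.22%). Among 809 genes that changed with injury in both genotypes with no call for the interaction, the shares were 5.19% and 7.79%. A match is a description of letters and not a binding site, and the motifs may overlap.

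4 promoters are printed to show the range among the genes the results turn on, each from 5′ to 3′ on the gene's strand with motif matches in capitals. They are Cxcl9 (chr5:92328080-92328329, minus strand), Cxcl10 (chr5:92348890-92349139, minus strand), Gbp2 (chr3:142620413-142620662, plus strand) and Gbp7 (chr3:142530086-142530335, plus strand).
Cxcl9: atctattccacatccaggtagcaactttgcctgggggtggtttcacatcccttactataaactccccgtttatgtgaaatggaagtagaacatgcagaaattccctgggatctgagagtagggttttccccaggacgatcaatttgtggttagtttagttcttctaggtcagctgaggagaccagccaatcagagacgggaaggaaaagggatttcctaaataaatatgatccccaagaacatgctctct
Cxcl10: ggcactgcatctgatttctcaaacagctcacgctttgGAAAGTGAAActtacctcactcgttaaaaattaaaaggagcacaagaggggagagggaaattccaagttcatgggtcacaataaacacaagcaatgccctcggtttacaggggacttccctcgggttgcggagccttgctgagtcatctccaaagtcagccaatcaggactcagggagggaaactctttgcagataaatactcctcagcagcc
Gbp2: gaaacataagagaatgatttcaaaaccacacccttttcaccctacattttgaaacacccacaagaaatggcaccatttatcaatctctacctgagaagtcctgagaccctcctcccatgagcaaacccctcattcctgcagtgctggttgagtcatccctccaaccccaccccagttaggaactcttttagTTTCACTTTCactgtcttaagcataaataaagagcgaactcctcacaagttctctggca
Gbp7: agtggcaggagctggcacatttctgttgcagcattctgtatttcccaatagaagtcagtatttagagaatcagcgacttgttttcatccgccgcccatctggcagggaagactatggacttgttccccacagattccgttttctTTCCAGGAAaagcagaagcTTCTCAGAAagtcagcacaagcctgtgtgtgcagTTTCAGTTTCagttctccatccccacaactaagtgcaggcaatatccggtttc
The Cxcl10 and Gbp2 windows hold 1 spaced GAAA pair each, on either strand, starting 213 and 59 bases before the RefSeq start. The annotation used for counting starts Gbp2 at 142620602, upstream of the RefSeq start, so the Gbp2 match lies just inside the gene as counted. The Gbp7 window holds 1 spaced GAAA pair at 53 bases and 2 TTCNNNGAA matches at 106 and 87 bases. In the Cxcl9 window neither set of letters was found.

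The 12 libraries held 14813365 to 22414750 counts. WT sham replicates 1 and 3 stood apart from WT sham replicate 2: they had 26235 and 26802 detected genes against 34115, and 4.87% and 6.52% of counts from mitochondrial genes against 15.2%. WT sham replicate 2 had 7.51% of its counts from the gene CT010467.1, against 1.98% to 3.76% in the 11 others. KO injured replicate 1 stood apart for interferon genes. All 28 measured type I effectors were highest there, at a median of 2.6 times the mean of KO injured replicates 2 and 3, against 0.995 times over the 12577 genes with a mean of at least 5 CPM in a group. So were 19 of 19 MHC class I genes (median 1.55 times), 15 of 18 interferon gamma-induced GTPases (1.2 times) and 50 of the 57 genes with a larger response (1.47 times). Of the 12577 genes, 4454 were highest there. Sensory neuron genes fixed as the tissue's markers were present in every library, with a summed level of 5140 to 5648 CPM in KO injured, 7987 to 10201 in KO sham, 5016 to 5901 in WT injured and 8627 to 13636 CPM in WT sham ganglia. Levels are CPM after TMM scaling of the library sizes.

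Ptpn2 itself had 24.1, 26.5 and 18.5 CPM in KO injured ganglia, 15.8, 12.1 and 10.5 in KO sham, 15.9, 19.8 and 17.5 in WT injured and 11.6, 19.3 and 12.9 in WT sham ganglia. KO and WT libraries overlapped in injured and in sham ganglia, and the gene was not lower in KO libraries by the test (log2 difference 0.38 ± 0.22 in injured ganglia, adjusted p = 0.503, and -0.19 ± 0.22 in sham ganglia, adjusted p = 0.872, by edgeR's quasi-likelihood test). KO injured libraries lay above KO sham ones, and this rise passed the same test (0.84 ± 0.22, adjusted p = 0.02445). In WT ganglia the injury change did not pass (0.28 ± 0.22, adjusted p = 0.415), nor did the interaction (0.56 ± 0.31, adjusted p = 0.598). Ptpn2 counts sum all exons, in all cells of the ganglion, so they neither check nor contradict the knockout label. In bulk tissue, fewer cells of a type and less RNA per cell cannot be told apart, here and for every gene that follows.

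The injury response of 83 of 18517 genes (0.448%) differed between the genotypes at a Benjamini-Hochberg adjusted p under 0.05. In 57 (0.308%) the response was higher in KO ganglia, and in 26 (0.14%) it was lower. At an unadjusted p under 0.05 there were 835 higher (4.51%) and 976 lower (5.27%). DESeq2 called 0.893% of genes higher and 0.911% lower, and limma-voom 4.21% and 6.64%; a call below is edgeR's where no other tool is named. The interaction is the log2 injury change in KO ganglia minus that in WT ganglia, tested in edgeR's quasi-likelihood fit of all ganglion libraries. In separate comparisons, 1174 genes rose (6.34%) and 847 fell (4.57%) with injury in KO ganglia, and 1593 rose (8.6%) and 1477 fell (7.98%) in WT ganglia. Between genotypes, 257 genes were higher (1.39%) and 150 lower (0.81%) in KO injured than in WT injured ganglia. In sham ganglia 20 were higher (0.108%) and 5 lower (0.027%) in KO than in WT.

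**Figure D1:**
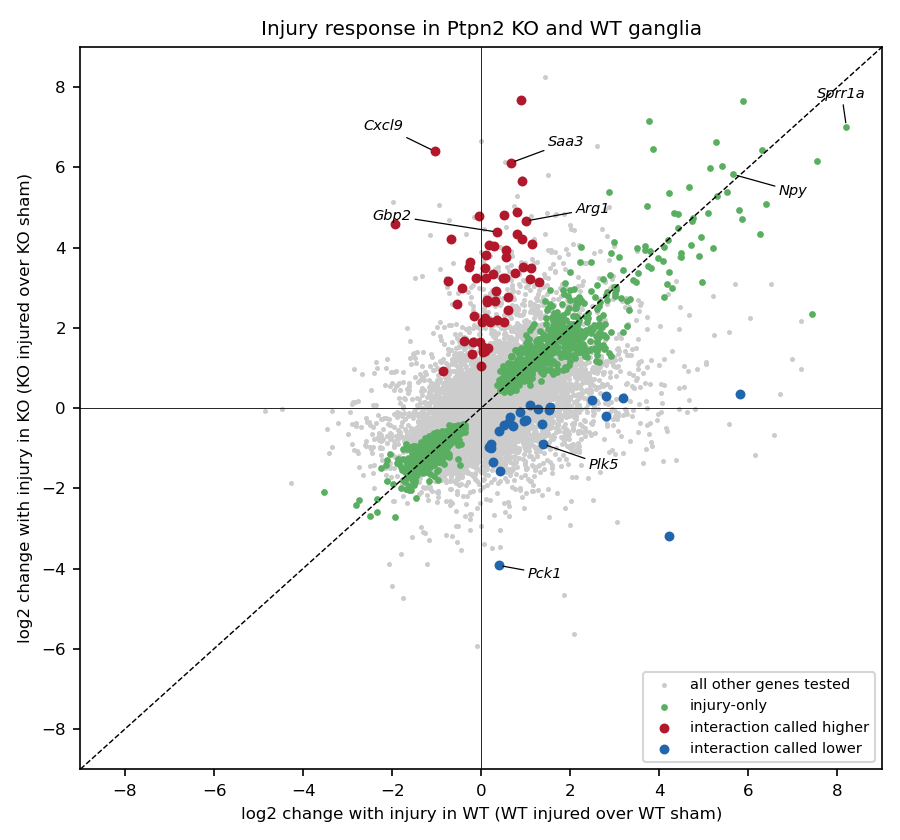
Log2 change with injury in KO ganglia (vertical) against that in WT ganglia (horizontal) for each of 18517 genes, from the edgeR fit; the dashed line marks equal changes. The 57 genes with an interaction called higher (red) lie above the line near 0 on the WT axis, the 26 called lower (blue) below it, and the 1055 injury-only genes (green) on both sides of it.

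Leaving out 1 library changed these counts. The 57 became 41 without KO injured replicate 1, 40 of them among the 57. They became 37 and 32 without KO sham replicates 2 and 3, 31, 34 and 34 without WT injured replicates 1, 2 and 3, and 255 without WT sham replicate 2. The 26 became 11 and 10 without KO injured replicates 1 and 2, 4 and 5 without KO sham replicates 2 and 3, and 15, 4 and 5 without WT injured replicates 1, 2 and 3. Without WT sham replicates 1, 2 and 3 the 26 became 13, 411 and 8. All 57 stayed above 0 and all 26 below 0 in each of these fits. Without WT sham replicates 1 and 3 together, 535 genes were called higher and 563 lower, with 53 of the 57 and 24 of the 26 among them.

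All 57 genes with a higher interaction had 1 pattern, called synergy here: they rose with injury in KO ganglia and were higher in KO injured than in WT injured ganglia. All 57 had each KO injured library above each of the 9 other libraries, as did 6.1% of all genes tested; the interaction was the basis of this choice, so the count is a description. Their median log2 change with injury was 3.24 in KO ganglia and 0.18 in WT ganglia. Their median log2 difference between genotypes was 3.10 in injured and 0.13 in sham ganglia. In WT ganglia 5 of the 57 passed the test for injury. In sham ganglia 0 passed edgeR's test for genotype; 10 had an unadjusted p under 0.05 (9 higher and 1 lower), 3 passed with DESeq2 (2 higher and 1 lower) and 11 with limma-voom (10 higher and 1 lower). Over all genes in that comparison, 5.37% were higher and 3.31% lower at an unadjusted p under 0.05; DESeq2 called 1% higher and 0.394% lower, and limma-voom 8.93% and 7.38%. 43 of the 57 were members of the 24 gene lists, as were 60 of the 1055 injury-only genes and 89 of the 14446 genes with no call in any comparison. The lists were chosen with earlier results of these data known, so this count too is a description. Exons of 24 of the 57 share positions with another gene, so their counts are uncertain.

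Cxcl9 had the highest interaction among these genes. It encodes a chemokine that draws T cells and natural killer cells through the receptor CXCR3, and it lies on chromosome 5 at 92321347 to 92328079 (GRCm38). It had 250.5, 67.6 and 65.9 CPM in KO injured ganglia, 1.26, 1.61 and 1.66 in KO sham, 1.89, 1.21 and 1.29 in WT injured and 1.22, 5.91 and 2.19 in WT sham ganglia. Each KO injured library was far above every other library, none of which passed 5.91 CPM, and KO injured replicate 1 was the highest of its group. The interaction was 7.45 ± 0.84 (SE; adjusted p = 0.000266). Cxcl10, the neighbouring CXCR3 ligand, had 116, 63.2 and 61.3 CPM in KO injured ganglia, 5.15, 4.54 and 3.26 in KO sham, 4.58, 6.17 and 6.77 in WT injured and 8.1, 9.34 and 10.5 in WT sham ganglia. The KO injured libraries did not overlap with the others, and WT injured libraries lay below the WT sham ones. Its interaction was 4.88 ± 0.44 (SE; adjusted p = 2.47e-05); reads of its exons overlap those of Art3 on the other strand and cannot be told apart.

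Genes of lymphocytes themselves were not called. Of the 16 measured genes of the CXCR3 list, 2 were called higher, Cxcl9 and Cxcl10, and the median interaction was 0.93. The other 14, among them Cd3e (log2 0.83 ± 0.82, adjusted p = 0.816), Trac (0.84 ± 0.87, adjusted p = 0.824), Gzmb (2.30 ± 1.14, adjusted p = 0.546) and Cxcl11 (0.99 ± 0.85, adjusted p = 0.775), were not called. Ifng did not reach the count needed for the test. The summed list was at 172 to 460 CPM in KO injured, 25.8 to 32.7 in KO sham, 31.8 to 38.2 in WT injured and 17.4 to 36.6 CPM in WT sham ganglia, a sum that includes Cxcl9 and Cxcl10.

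Gbp2 encodes a guanylate-binding protein, one of the interferon gamma-induced GTPases that act on pathogen-containing vacuoles. The gene is on chromosome 3 at 142620602 to 142638008. It had 577, 829 and 736 CPM in KO injured ganglia, 26.9, 39.8 and 35.6 in KO sham, 33, 34.8 and 32.1 in WT injured and 22.6, 31.7 and 24.1 in WT sham ganglia. The 9 other libraries lay between 22.6 and 39.8 CPM, and the KO injured ones at 577 CPM or more. The interaction was 4.04 ± 0.31 (SE; adjusted p = 9.8e-06). The immunity-related GTPase Igtp had 465, 446 and 360.4 CPM in KO injured ganglia, 40.4, 50 and 44.3 in KO sham, 43.3, 49.9 and 40.7 in WT injured and 33.4, 32.4 and 29.3 in WT sham ganglia. Its injury change passed the test in WT ganglia too (0.49 ± 0.14, adjusted p = 0.029), while the interaction was 2.75 ± 0.20 (SE; adjusted p = 9.8e-06). Igtp shares exon positions with Irgm2 on the same strand.

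Of the 18 interferon gamma-induced GTPases, 13 were called higher and none lower, against 0.308% and 0.14% of all genes, with a median interaction of 2.94 against 0.02 over all genes. All 18 had a positive interaction, as did 9584 of the 18517 genes tested. All 18 also had KO injured libraries above the other 9, as did 6.1% of all genes. Gbp11 (6.54 ± 0.98 (SE; adjusted p = 0.0043)), Gbp10 (4.75 ± 0.86 (SE; adjusted p = 0.0208)), Gbp4 (3.76 ± 0.40 (SE; adjusted p = 0.000141)), Iigp1 (3.70 ± 0.31 (SE; adjusted p = 1.92e-05)) and Gbp7 (2.56 ± 0.23 (SE; adjusted p = 2.47e-05)) were among the called members. The Gbp11 value joins a log2 injury change of 4.60 ± 0.69 in KO and an uncalled one of -1.94 ± 0.71 in WT ganglia. Its WT sham libraries had 0.566, 3.8 and 1.87 CPM. For Gbp10 the changes were 5.65 ± 0.59 in KO and 0.91 ± 0.62 in WT ganglia. Gbp2b, at 4.69 ± 0.99, missed the threshold with an adjusted p of 0.0548. Counts within this family are uncertain, since near-identical copies can share reads and Gbp4, Gbp8 and Gbp9 share exon positions. Gbp10 missed the threshold when KO injured replicates 1 or 2, KO sham replicates 1 or 2, or any WT injured library was left out (adjusted p up to 0.0694).

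**Figure D2:**
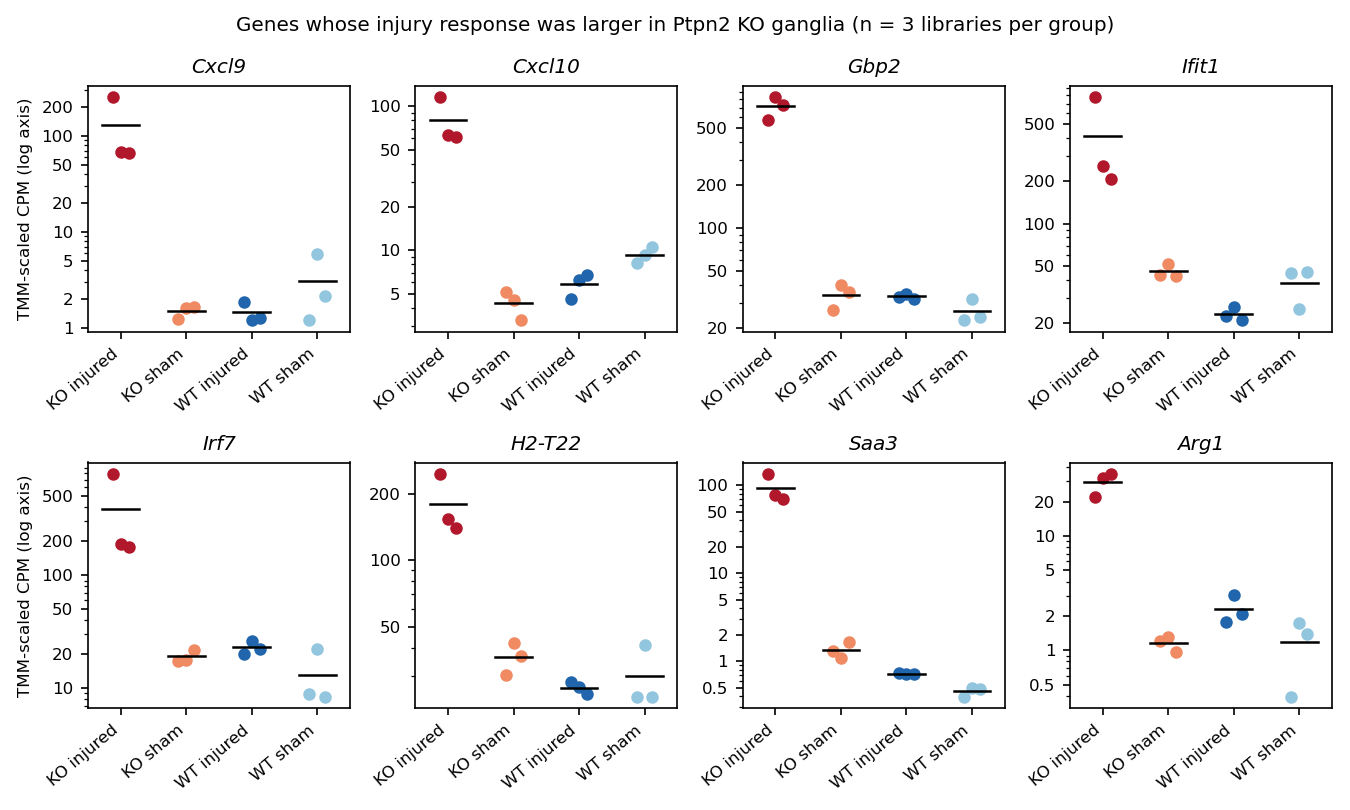
TMM-scaled CPM on log axes for 8 genes with a higher interaction, with 1 point per library and a bar at the mean of each group (n = 3), in the order KO injured, KO sham, WT injured and WT sham. The KO injured libraries sit above the 9 others in each panel; for Cxcl9, Cxcl10, Ifit1, Irf7, H2-T22 and Saa3, KO injured replicate 1 is the highest point.

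Type I interferon effectors, which block virus entry, translation and replication, formed the next group. Of 28, 11 were called higher and none lower, against 0.308% and 0.14% of all genes, with a median interaction of 2.16. DESeq2 called 19 higher and limma-voom 14 higher, and 23 had an unadjusted p under 0.05, all higher. Ifit1, which binds foreign RNA caps, had 778, 253 and 206 CPM in KO injured ganglia, 43.6, 52.2 and 43 in KO sham, 22.4, 25.8 and 20.8 in WT injured and 44.8, 25 and 45.4 in WT sham ganglia. KO injured replicate 1 stood far above replicates 2 and 3, and all 3 were above the other groups. The interaction was 3.89 ± 0.55 (SE; adjusted p = 0.00285), and without KO injured replicate 1 it was 3.03 (adjusted p = 0.000305). Ifit3 (3.79 ± 0.38 (SE; adjusted p = 8.26e-05)), Ifi44 (3.88 ± 0.62 (SE; adjusted p = 0.00783)), Bst2 (3.14 ± 0.50 (SE; adjusted p = 0.00783)) and Rtp4 (2.52 ± 0.32 (SE; adjusted p = 0.00108)) were also called. Bst2 encodes tetherin, which holds budding viruses at the cell surface.

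The 16 STAT and IRF genes, transcription factors downstream of interferon receptors, had a median interaction of 0.44, and Irf7 was called higher. Irf7, the factor that amplifies type I interferon production, had 795, 189 and 178 CPM in KO injured ganglia, 17.5, 18 and 21.9 in KO sham, 20.3, 26.4 and 22.5 in WT injured and 8.89, 22.3 and 8.39 in WT sham ganglia. KO injured replicate 1 was again far above replicates 2 and 3, and all 3 were above the other groups. The interaction was 3.53 ± 0.70 (SE; adjusted p = 0.0372); it was 2.43 without KO injured replicate 1 (adjusted p = 0.0356) and missed the threshold without any 1 of the KO sham and WT injured libraries (adjusted p up to 0.114). Irf1 (1.16 ± 0.30, adjusted p = 0.129), Stat2 (1.38 ± 0.42, adjusted p = 0.243) and Stat3 (0.58 ± 0.28, adjusted p = 0.538) were not called with edgeR. Of the 16, DESeq2 called 3 higher and limma-voom 4 higher, against 0.893% and 4.21% of all genes. At an unadjusted p under 0.05 there were 5, all higher, against 4.51% of all genes.

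No receptor or kinase at the top of the pathway was called. Of the 8 interferon receptors and Janus kinases, 0 passed in either direction with edgeR, DESeq2 or limma-voom, 0 had an unadjusted p under 0.05, and their median interaction was -0.08. Ifngr2, a chain of the interferon gamma receptor, had 118, 103 and 93.2 CPM in KO injured ganglia, 96.2, 88.7 and 93.1 in KO sham, 94.8, 112 and 103 in WT injured and 112, 97.2 and 105 in WT sham ganglia, and its groups overlap (0.20 ± 0.17 (SE; adjusted p = 0.769)). Jak1 (0.26 ± 0.30 (SE; adjusted p = 0.853)) was the other member named. Without WT sham replicates 1 and 3 its value was -0.63 (adjusted p = 0.028), a call in the opposite direction. Among 10 negative regulators of the pathway, Socs1, an inhibitor of Janus kinases, was called higher; the list's median was 0.36. Socs1 had 21, 16.7 and 17.5 CPM in KO injured ganglia, 3.83, 4.48 and 3.4 in KO sham, 3.97, 6.06 and 6 in WT injured and 2.7, 7.41 and 5.13 in WT sham ganglia, with KO injured libraries above all others, and an interaction of 2.15 ± 0.43 (SE; adjusted p = 0.0397). It missed the threshold without any 1 of the 3 KO injured, 3 KO sham and 3 WT injured libraries or WT sham replicate 3 (adjusted p up to 0.142). Ptpn2, in the same list, had an interaction of 0.56 ± 0.31 (SE; adjusted p = 0.598).

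MHC class I presentation, by which cells show peptides to CD8 T cells, held 10 called genes of 19, all higher, against 0.308% of all genes. DESeq2 called 15 higher and limma-voom 15 higher, and 19 had an unadjusted p under 0.05. All 19 had a positive interaction, as did 9584 of the 18517 genes tested. All 19 also had KO injured libraries above the other 9, as did 6.1% of all genes. In all 19 KO injured replicate 1 was the highest library. The median was 1.64. Tap1, a subunit of the peptide transporter, had 154, 102 and 93.7 CPM in KO injured ganglia, 17.5, 18.2 and 19.1 in KO sham, 22.1, 20.2 and 20 in WT injured and 15, 23.4 and 12.1 in WT sham ganglia, with an interaction of 2.37 ± 0.34 (SE; adjusted p = 0.00301); its exons share positions with Psmb9 on the other strand. H2-T22, a non-classical class I molecule (2.47 ± 0.32 (SE; adjusted p = 0.00126)), Psme2, a proteasome activator subunit (1.48 ± 0.21 (SE; adjusted p = 0.00285)), and Psmb10, an immunoproteasome subunit (1.53 ± 0.22 (SE; adjusted p = 0.00285)), were also called. Counts of H2 genes are uncertain because of near-identical copies. Class II presentation held 0 calls among 8 genes with edgeR, DESeq2 or limma-voom, 1 at an unadjusted p under 0.05, and a median of 0.48. In 6 of the 8 the KO injured libraries lay above the other 9, as did 6.1% of all genes. Cd74, the class II invariant chain, had 541, 612 and 523 CPM in KO injured ganglia, 197, 332 and 293 in KO sham, 369, 241 and 286 in WT injured and 86.9, 359 and 119 in WT sham ganglia. KO injured libraries lay above all others, and the other 3 groups overlapped; the interaction was 0.36 ± 0.57 (SE; adjusted p = 0.899), and that of H2-Ab1 was 0.76 ± 0.60 (SE; adjusted p = 0.748).

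Chemokines for monocytes and their receptors rose with injury in both genotypes: of 12 genes, 10 rose in KO and 7 in WT ganglia, against 6.34% and 8.6% of all genes. For the interaction 2 were called (median 1.92). DESeq2 called 3 higher, limma-voom 2 higher and 1 lower, and 7 had an unadjusted p under 0.05. Ccl2, a ligand of CCR2, had 58.4, 39.2 and 28.2 CPM in KO injured ganglia, 3.95, 6.33 and 3.12 in KO sham, 7.81, 7.22 and 8.9 in WT injured and 2.53, 4.73 and 4.01 in WT sham ganglia. The interaction was 2.13 ± 0.44 (SE; adjusted p = 0.048), close to the threshold, and its WT injury change also passed (1.09 ± 0.32, adjusted p = 0.0288). Ccl7, which shares that receptor, had 2.59 ± 0.51 (SE; adjusted p = 0.037). Ccl5 (3.16 ± 0.83, adjusted p = 0.148) and Ccl4 (3.34 ± 1.14, adjusted p = 0.305) had larger values with wider errors and were not called. The 2 called genes missed the threshold without any 1 of 8 libraries each (adjusted p up to 0.166).

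Of 18 acute phase and complement genes, 1 was called with edgeR, Saa3, with a list median of 0.40. DESeq2 called 6 higher, limma-voom 3 higher and 3 lower, and 8 had an unadjusted p under 0.05, all higher. Saa3, a serum amyloid gene on chromosome 7 at 46711998 to 46715700, had 135, 76.9 and 68.7 CPM in KO injured ganglia, 1.32, 1.08 and 1.66 in KO sham, 0.732, 0.716 and 0.709 in WT injured and 0.392, 0.498 and 0.481 in WT sham ganglia. No other library passed 1.66 CPM, and the KO sham libraries lay above both WT groups, a difference that did not pass the test (log2 1.55 ± 0.34 over WT sham, adjusted p = 0.0877). The interaction was 5.45 ± 0.48 (SE; adjusted p = 2.47e-05). In the cGAS-STING list, the DNA sensing route to type I interferon, 0 of 8 genes were called with edgeR, 2 with DESeq2 and 1 with limma-voom, all higher, and 4 had an unadjusted p under 0.05 (median 0.68); Tbk1 had 0.13 ± 0.33 (SE; adjusted p = 0.944) and Samhd1 1.21 ± 0.34 (SE; adjusted p = 0.202).

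Arg1 was the 1 gene called with edgeR among the 26 measured regeneration-associated genes; DESeq2 called 1 higher and limma-voom 7 higher, and 8 had an unadjusted p under 0.05 (6 higher and 2 lower). It encodes arginase 1, known from regenerating neurons and from alternatively activated macrophages, and lies on chromosome 10 at 24915221 to 24927484. Arg1 had 21.9, 32.1 and 35.1 CPM in KO injured ganglia, 1.2, 1.31 and 0.97 in KO sham, 1.77, 3.03 and 2.06 in WT injured and 0.392, 1.74 and 1.39 in WT sham ganglia. The KO injured libraries lay at 21.9 CPM or more and the others at or under 3.03 CPM. The interaction was 3.66 ± 0.65 (SE; adjusted p = 0.0183), and it missed the threshold when KO injured replicate 2, KO sham replicates 2 or 3, WT injured replicates 1 or 3, or WT sham replicate 3 was left out (adjusted p up to 0.077). The list's median interaction was 0.36, and 16 of its 26 genes had the injury-only pattern given below.

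Macrophage markers rose with injury in both genotypes, 15 of 18 in KO and 16 of 18 in WT ganglia, against 6.34% and 8.6% of all genes. Their median interaction was 0.13. For the interaction 0 were called with edgeR or DESeq2, 5 were called lower with limma-voom (6.64% of all genes), and 4 had an unadjusted p under 0.05. Their summed level was 3196 to 3712 CPM in KO injured, 762 to 1080 in KO sham, 2765 to 2979 in WT injured and 385 to 1136 CPM in WT sham ganglia. Lyz2, a lysozyme of macrophages and neutrophils, had -0.52 ± 0.54 (adjusted p = 0.823), and Fcer1g, an immune receptor subunit, 0.29 ± 0.50 (adjusted p = 0.907). The part of macrophages in the 57 calls was not tested.

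14 of the 57 genes belong to no list. Among them were Cplx3, Calhm6 and, with symbols of predicted or clone-named genes, Gm12250 (4.83 ± 0.58, adjusted p = 0.000605), F830016B08Rik (4.09 ± 0.84, adjusted p = 0.0446) and Gm4951 (3.90 ± 0.46, adjusted p = 0.000454). Cplx3, which encodes a complexin of the synaptic release machinery, had 5.45, 20.9 and 17 CPM in KO injured ganglia, 0, 0.0598 and 0.139 in KO sham, 0.305, 0.0551 and 0.258 in WT injured and 0.0436, 0.0623 and 0.214 in WT sham ganglia. It was seen in 656 reads in KO injured and 3 in KO sham ganglia, a ratio of 227 by CPM with an exact 95% counting interval of 77.5 to 1105, which covers counting error only. The interaction was 6.78 ± 1.37 (SE; adjusted p = 0.0406), lost without any 1 of 10 libraries (adjusted p up to 0.389). Calhm6, a calcium homeostasis modulator channel gene of immune cells, had an interaction of 4.30 ± 0.77 (SE; adjusted p = 0.0187); it missed the threshold without KO injured replicate 1, KO sham replicate 3 or WT injured replicate 2 (adjusted p up to 0.0754).

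**Figure D3:**
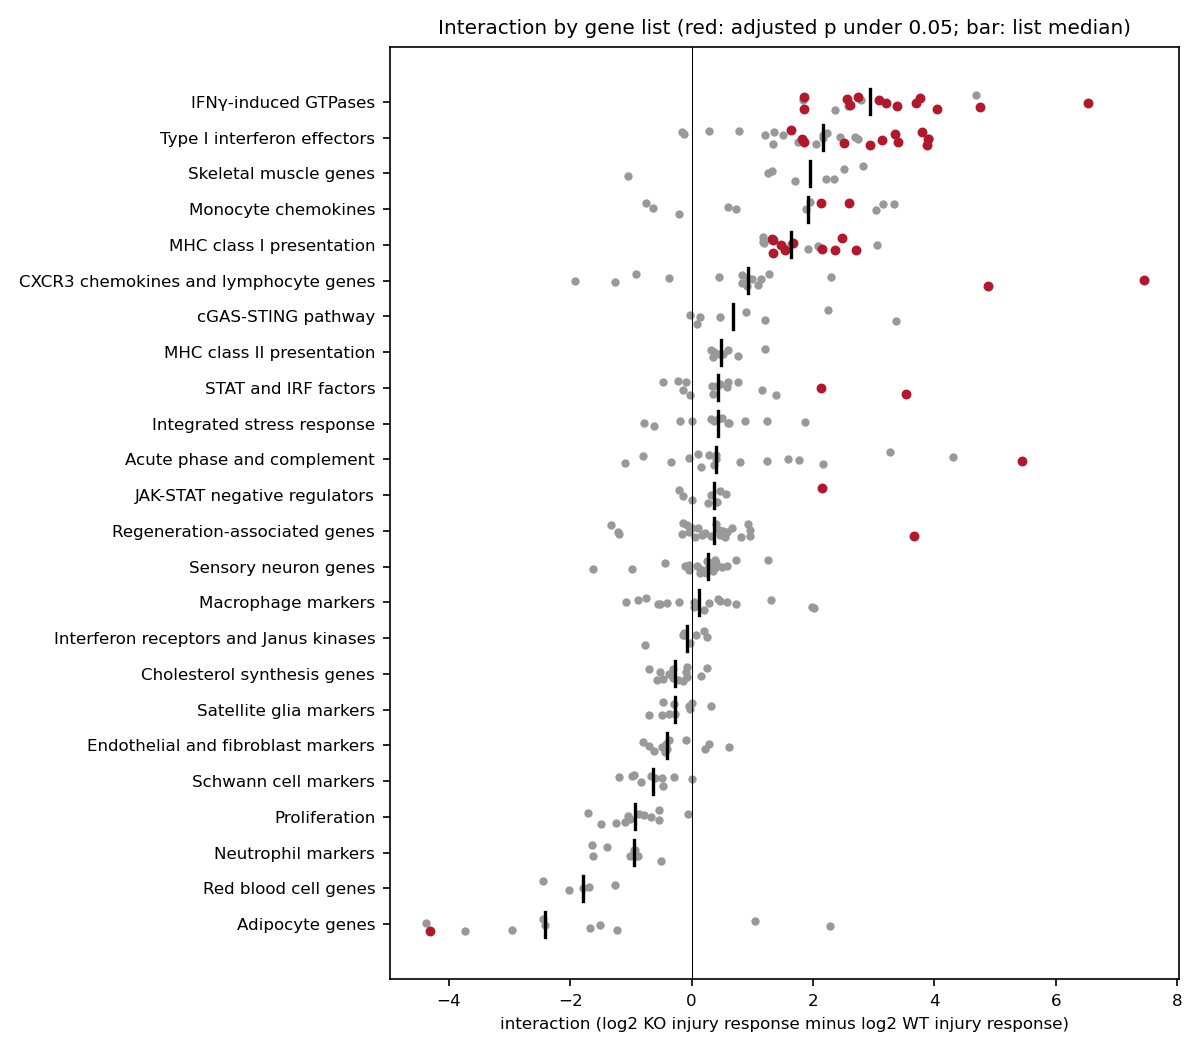
Interaction log2 values (KO response minus WT response) of the measured members of each gene list, 1 point per gene, with genes at an adjusted p under 0.05 in red and a bar at the list's median. All GTPase and class I genes lie to the right of 0, as do 26 of 28 type I effectors, with medians of 2.94, 1.64 and 2.16; the receptor and kinase list has a median of -0.08 and the adipocyte list of -2.42.

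The 26 genes with a lower interaction fell into several patterns, and in all 26 the WT injury change was above 0. Their median interaction was -1.41. 5 of them (0.027% of all genes) fell with injury in KO ganglia and were lower in KO injured than in WT injured ganglia, the mirror of synergy: Plk5, Car4, Inka2, Slc36a2 and Paqr6. Plk5, a polo-like kinase expressed in the nervous system, had 5.07, 4.88 and 4.76 CPM in KO injured ganglia, 8.2, 10.8 and 8.46 in KO sham, 22.9, 18 and 17.7 in WT injured and 7.14, 9.03 and 6.15 in WT sham ganglia. In 3 of the 5, each KO injured library was below the 9 others, as in 2.97% of all genes. For Plk5, KO injured was the lowest group and WT injured the highest, and neither overlapped with any other group. The interaction was -2.29 ± 0.30 (SE; adjusted p = 0.00119); the injury change was -0.90 ± 0.21 (adjusted p = 0.0134) in KO and 1.39 ± 0.21 (adjusted p = 0.00118) in WT ganglia. Car4, a membrane carbonic anhydrase, had an interaction of -1.98 ± 0.31 (SE; adjusted p = 0.00733).

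14 genes (0.0756%) rose with injury in WT ganglia with no synergy and no call for genotype in sham ganglia, a WT-led pattern; 1 of them, Igkv3-4, also fell in KO ganglia. Cav1, the main protein of caveolae, had 102, 104 and 120.0 CPM in KO injured ganglia, 131, 148 and 135 in KO sham, 225, 209 and 208 in WT injured and 139, 146 and 135 in WT sham ganglia. WT injured libraries stood above all others and KO injured ones below all others, and the interaction was -0.96 ± 0.15 (SE; adjusted p = 0.00788). Tmcc2 (-1.58 ± 0.29 (SE; adjusted p = 0.0217)), Dhrs11 (-1.51 ± 0.30 (SE; adjusted p = 0.0383)), the signalling adaptor Shc4 (-1.32 ± 0.27 (SE; adjusted p = 0.0475)) and the guanine nucleotide exchange factor Arhgef10 (-1.29 ± 0.26 (SE; adjusted p = 0.0383)) had the same pattern of calls. Their KO minus WT log2 difference in sham ganglia was above 0 but not called: 0.67 ± 0.21, 1.07 ± 0.21, 0.38 ± 0.19 and 0.69 ± 0.18 in that order. In injured ganglia it was -0.90, -0.44, -0.94 and -0.60. For Dhrs11 the WT sham libraries, at 10.3, 11.7 and 10 CPM, lay below all others.

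Beside these calls, red blood cell genes summed to 5293 to 6582 CPM in KO injured, 4576 to 6514 in KO sham, 10704 to 10773 in WT injured and 1186 to 6495 CPM in WT sham ganglia. The 5 genes had a median interaction of -1.79, with 0 called with edgeR, 1 lower with DESeq2, 5 lower with limma-voom and 4 at an unadjusted p under 0.05; Hbb-bs, a beta globin, had -1.79 ± 0.67 (SE; adjusted p = 0.367), and Hba-a1, an alpha globin, -1.70 ± 0.64 (SE; adjusted p = 0.368). Schwann cell markers summed to 10263 to 12963 CPM in KO injured, 10571 to 11065 in KO sham, 21960 to 23896 in WT injured and 10153 to 16149 CPM in WT sham ganglia. Their median interaction was -0.64, with 0 of 10 called with edgeR, 1 lower with DESeq2, 7 lower with limma-voom and 6 at an unadjusted p under 0.05; the myelin genes Mbp (-1.19 ± 0.37 (SE; adjusted p = 0.257)) and Pmp22 (-0.47 ± 0.21 (SE; adjusted p = 0.495)) were among them. The part of these cell types in the lower interactions was not tested.

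5 genes (0.027%) had a lower interaction with a genotype difference already in sham ganglia: Pck1, Gpd1, Prss34, Abcb10 and Apol11a. Pck1, which encodes the rate-limiting enzyme of gluconeogenesis and is also expressed in fat, had 2.63, 0.335 and 0.529 CPM in KO injured ganglia, 12.9, 20.1 and 20.7 in KO sham, 0.916, 0.386 and 1.42 in WT injured and 0.479, 1.18 and 0.428 in WT sham ganglia. KO sham was the high group, with no overlap, and the genotype difference was 4.71 ± 0.64 in sham ganglia (adjusted p = 0.00987). The interaction was -4.32 ± 0.89 (SE; adjusted p = 0.0467). Adipocyte genes summed to 41.4 to 92.7 CPM in KO injured, 187 to 310 in KO sham, 41.1 to 80.3 in WT injured and 18 to 209 CPM in WT sham ganglia. Of 11 measured, 4 were higher in KO sham than in WT sham ganglia, against 0.108% of all genes. The median interaction of the 11 was -2.42. Pck1 was the 1 called with edgeR; DESeq2 called 3 lower and limma-voom 7 lower, and 7 had an unadjusted p under 0.05 (1 higher and 6 lower). The part of adipocytes in its result was not tested.

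Gpd1, glycerol-3-phosphate dehydrogenase, had 54.5, 46.8 and 60.6 CPM in KO injured ganglia, 107, 149 and 157 in KO sham, 72.9, 79.8 and 79.9 in WT injured and 61.9, 66.2 and 66.5 in WT sham ganglia, again with KO sham above the rest (-1.61 ± 0.26 (SE; adjusted p = 0.00783)). Prss34, a serine protease gene, had 15.9, 22.6 and 21.5 CPM in KO injured ganglia, 11.2, 20.6 and 20.8 in KO sham, 37.4, 26.5 and 25.1 in WT injured and 3.79, 6.35 and 5.72 in WT sham ganglia. WT sham was the low group, and the interaction was -2.30 ± 0.43 (SE; adjusted p = 0.023). The remaining 2 of the 26 (0.0108% of all genes), Kank1 (-1.14 ± 0.24 (SE; adjusted p = 0.0453)) and Epas1 (-1.22 ± 0.24 (SE; adjusted p = 0.0386)), fitted none of these patterns: each had its lowest group in KO injured and its highest in KO sham ganglia. Of the named lower genes, Plk5, Car4 and Gpd1 kept their call without each library in turn. Pck1 missed the threshold without any 1 of 10 libraries (adjusted p up to 0.194), Shc4 without any 1 of 11 (up to 0.156), Dhrs11 and Arhgef10 without any 1 of 9 (up to 0.131 and 0.132), and Prss34 and Tmcc2 without any 1 of 7 (up to 0.0862 and 0.0832).

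1055 genes (5.7%) had the injury-only pattern: they rose (557) or fell (498) with injury in both genotypes, with no call for genotype or interaction. In 484 of them the 95% interval of the interaction lay within a log2 of -1 and 1, while for the others the interval reaches beyond that size. Sprr1a, a cornified envelope gene induced in injured neurons, had 577, 638 and 599 CPM in KO injured ganglia, 4.07, 5.08 and 4.92 in KO sham, 329, 719 and 638 in WT injured and 1.52, 2.61 and 1.66 in WT sham ganglia. Injured and sham libraries did not overlap, and both injured groups overlapped with each other. The KO sham libraries lay above the WT sham ones, a difference that did not pass edgeR's test (log2 1.30 ± 0.40, adjusted p = 0.2645). The injury change was 7.01 ± 0.41 in KO and 8.20 ± 0.44 in WT ganglia, and the interaction was -1.19 ± 0.50 (SE, adjusted p = 0.447). Its 95% interval lay below 0 (-2.26 to -0.12), though it was not called over all genes. Npy, a neuropeptide induced in large sensory neurons, had 77.2, 89.3 and 68.9 CPM in KO injured ganglia, 1.5, 1.25 and 1.39 in KO sham, 36.3, 103 and 78.8 in WT injured and 1.48, 1.37 and 1.44 in WT sham ganglia. Its injury changes were 5.82 ± 0.48 and 5.66 ± 0.47 in KO and WT ganglia, with an interaction of 0.16 ± 0.63 (SE; adjusted p = 0.967).

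Lipn, a lipase gene, and Cckbr, a cholecystokinin receptor, also rose in both genotypes, with interactions of 0.12 ± 1.06 (adjusted p = 0.984) and -1.32 ± 0.82 (adjusted p = 0.66). Atf3 (-1.22 ± 0.49, adjusted p = 0.418), Jun (0.22 ± 0.27, adjusted p = 0.859), Gal (0.40 ± 0.39, adjusted p = 0.814) and Gap43 (0.67 ± 0.26, adjusted p = 0.388), all regeneration-associated, had the same pattern. Genes that fell in both genotypes with no call for the interaction included the somatostatin receptor Sstr2 (0.28 ± 0.53, adjusted p = 0.918), the serotonin receptor subunit Htr3b (0.10 ± 0.54, adjusted p = 0.976), the junction gene Ajm1 (0.75 ± 0.56, adjusted p = 0.725) and the matrix gene Comp (-0.32 ± 0.31, adjusted p = 0.816).

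Of 25 sensory neuron genes, 9 fell with injury in KO and 18 in WT ganglia, against 4.57% and 7.98% of all genes. Their median interaction was 0.26. For the interaction 0 were called with edgeR or DESeq2 and 6 higher with limma-voom, and 1 had an unadjusted p under 0.05. The nociceptor peptide gene Calca fell by 0.58 in KO and by 0.88 in WT ganglia on the log2 scale, with an interaction of 0.31 ± 0.21 (SE; adjusted p = 0.701); the neurofilament gene Nefl had 0.39 ± 0.34 (SE; adjusted p = 0.777). Of 12 proliferation genes, 1 rose in KO and 12 in WT ganglia, against 6.34% and 8.6% of all genes. Their median interaction was -0.94. For it 0 were called with edgeR or DESeq2 and 9 lower with limma-voom (6.64% of all genes), and 3 had an unadjusted p under 0.05. Their sum was 379 to 439 CPM in KO injured and 187 to 264 CPM in KO sham ganglia. It was 425 to 477 CPM in WT injured and 96.4 to 237 CPM in WT sham ganglia. Among these genes, Rrm2, a ribonucleotide reductase subunit, had -1.25 ± 0.55 (SE, adjusted p = 0.471) and Pcna -0.06 ± 0.19 (SE, adjusted p = 0.957). Rrm2 had 12.8, 33.2 and 13.4 CPM in WT sham replicates 1, 2 and 3. Without replicates 1 and 3 its interaction was -0.54. Of 9 neutrophil markers, 5 rose in KO and 9 in WT ganglia, against 6.34% and 8.6% of all genes, with a median interaction of -0.94. For the interaction 0 were called with edgeR or DESeq2 and 8 lower with limma-voom, and 3 had an unadjusted p under 0.05. S100a8 had -0.90 ± 0.57 (SE; adjusted p = 0.671) and Ngp -1.40 ± 0.50 (SE; adjusted p = 0.338). Their sum was 5778 to 5992 CPM in KO injured, 1928 to 2818 in KO sham, 5195 to 6723 in WT injured and 669 to 2183 CPM in WT sham ganglia.

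7 genes (0.0378%) had the genotype-only pattern, a called difference between KO and WT in the same direction in injured and in sham ganglia with no call for injury or interaction. Ly6c1, Etnppl and Igkv6-25 were higher in KO, and Col1a1, Supt16, Calcoco2 and Rpl15-ps6 lower. Ly6c1, a surface protein of endothelium and monocytes, had 48.4, 47.6 and 47.8 CPM in KO injured ganglia, 33.7, 40.8 and 39.3 in KO sham, 20.4, 27.3 and 24.2 in WT injured and 20.4, 17.5 and 19.6 in WT sham ganglia. All KO libraries lay above all WT libraries. The genotype difference was 1.0 ± 0.15 in injured and 0.98 ± 0.15 in sham ganglia, with an interaction of 0.02 ± 0.21 (SE; adjusted p = 0.989). Col1a1, a chain of fibrillar collagen type I, had 114, 109 and 149.7 CPM in KO injured ganglia, 140.2, 86.2 and 76.3 in KO sham, 375, 388 and 380.1 in WT injured and 207, 616 and 261 in WT sham ganglia, with all KO libraries below all WT libraries. It differed by -1.62 ± 0.34 in injured and -1.84 ± 0.34 in sham ganglia (adjusted p = 0.0499), with an interaction of 0.22 ± 0.46 (SE; adjusted p = 0.928).

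Supt16, a histone chaperone subunit, differed by -1.16 ± 0.20 in injured (adjusted p = 0.00477) and -1.11 ± 0.20 in sham ganglia (adjusted p = 0.0499, at the threshold). Of the 7 genotype-only genes, 1 kept the pattern without KO sham replicates 2 or 3 or WT sham replicate 3. Without KO sham replicate 1 all 7 kept it, and without any 1 of the other libraries 2 to 4 did. Etnppl, an ethanolamine phosphate lyase, was higher by 1.98 ± 0.44 and 4.45 ± 0.48, and its interaction of -2.46 ± 0.63 (SE; adjusted p = 0.13) did not pass over all genes, though its 95% interval lies below 0, as does that of Igkv6-25. In 2 of the 7 the interval of the interaction lay within -1 and 1. Casp1, the inflammatory caspase, was the 1 gene (0.0054%) called for injury in both genotypes and for genotype in both states without an interaction: it had 27.4, 23.7 and 25.6 CPM in KO injured ganglia, 15.3, 17.9 and 16.8 in KO sham, 11.6, 11.8 and 13.8 in WT injured and 7.54, 7.97 and 8.55 in WT sham ganglia.

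**Figure D4:**
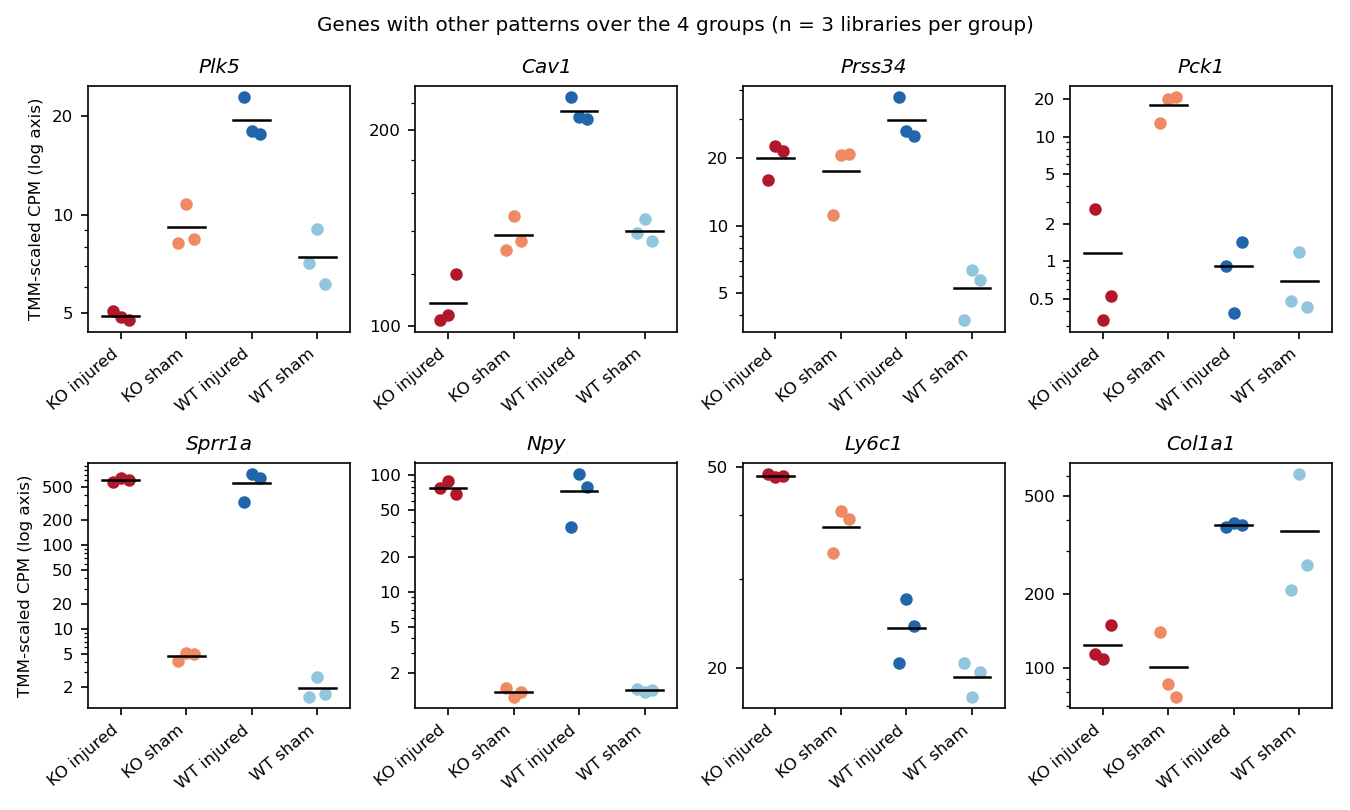
TMM-scaled CPM on log axes for 8 genes with other patterns, with 1 point per library and a bar at the mean of each group (n = 3). Plk5, Cav1, Prss34 and Pck1 have lower interactions, Sprr1a and Npy the injury-only pattern, and Ly6c1 and Col1a1 the genotype-only pattern.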

How the data were processed

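Raw counts per gene symbol of 15 ganglion libraries were used as deposited. The submitters' processing notes name Trim Galore for trimming, STAR as aligner and the GRCm38 (mm10) genome. Counting used featureCounts 2.0.1 on Ensembl release 101 per the file headers: primary alignments of read pairs, mapping quality 10 or more, no strand. The gene lengths (other values) in the deposited table and the retinal table were not used. That command names 20 alignment files.

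The main test was edgeR 4.0.16 (R 4.3.3) with TMM, filterByExpr (minimum count 10, minimum total 15) and a robust quasi-likelihood fit of 15 libraries in 5 groups, which share 1 estimate of the spread (biological coefficient of variation 0.262). Benjamini-Hochberg adjusted p under 0.05 over 18517 genes was called. Patterns combine the calls of 5 contrasts. The floor of detection is 3 counts, 0.131 to 0.208 CPM.

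Named genes are Ptpn2, Cxcl9, Gbp2 and Arg1, the 12 largest positive and 10 largest negative called interactions reaching 5 CPM, the 4 most extreme genes each way of 2 patterns, and up to 4 called genes (or 2 uncalled) of each list; outside the lists, symbols of predicted genes, clones, pseudogenes and mitochondrial genes were passed over. Cav1, Gm12250, F830016B08Rik, Gm4951, the other listed members with values, Kank1, Epas1 and Casp1 were named after their values were seen. A few genes that the rule names are not reported here. The members and the 24 lists were chosen with earlier results of these data known. Tests were tested on simulated data. Alternatives, with DESeq2 1.42.0 and limma 3.58.1 (voom), are in the closing section.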

Additional observations from a re-analysis of the deposited data

Results flagged for a closer look

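The injury response of 35 named genes differed between KO and WT ganglia by a test of the difference itself, at an adjusted p under 0.05 in edgeR's quasi-likelihood test over all genes. Log2 values are the KO response minus the WT response. Chemokine and acute phase genes were Cxcl9 (7.45), Cxcl10 (4.88), Ccl7 (2.59), Ccl2 (2.13) and Saa3 (5.45). GTPases were Gbp11 (6.54), Gbp10 (4.75), Gbp2 (4.04), Gbp4 (3.76), Iigp1 (3.70), Igtp (2.75) and Gbp7 (2.56). Type I effectors were Ifit1 (3.89), Ifi44 (3.88), Ifit3 (3.79), Bst2 (3.14) and Rtp4 (2.52).

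Regulators were Irf7 (3.53) and Socs1 (2.15), and class I genes were H2-T22 (2.47), Tap1 (2.37), Psmb10 (1.53) and Psme2 (1.48). Cplx3 (6.78), Calhm6 (4.30) and Arg1 (3.66) were the other higher genes. Lower interactions were Pck1 (-4.32), Prss34 (-2.30), Plk5 (-2.29), Car4 (-1.98), Gpd1 (-1.61), Tmcc2 (-1.58), Dhrs11 (-1.51), Shc4 (-1.32) and Arhgef10 (-1.29). Of these 35, 21 kept the call without each library in turn and 14 lost it without at least 1.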

How the results depend on the processing

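In all 21 alternatives the 57 higher interactions stayed above 0 and the 26 lower ones below 0; 30 to 57 and 4 to 26 of them were called again. Without WT sham replicates 1 and 3, where WT sham rests on replicate 2 alone, Jak1 turned from 0.26 to -0.63. Other named genes not called in the main fit also changed sign there. Tbk1 went from 0.13 to -0.79, Fdft1 from 0.15 to -0.45 and Lyz2 from -0.52 to 0.24. Among uncalled genes, H2-Ab1 grew from 0.76 to 1.72 and Samhd1 from 1.21 to 1.65, while Rrm2 shrank from -1.25 to -0.54. Counts below are given for interaction higher and lower, synergy higher and lower, injury-only, genotype-only, and for injury in KO, injury in WT, genotype in injured and genotype in sham ganglia, where they moved by over 1.5 times. DESeq2's size factors moved none so far. Without the low count filter there were 209 and 214, 156 and 13, 54 genotype-only, and 711 and 596 for genotype. DESeq2 gave 146 and 149, 130 and 35, 32 genotype-only, and 791 and 259 for genotype. Limma-voom gave 779 and 1229, 223 and 114, 1983, 69, 4417, 9264, 2101 and 3021. A fit of the 4 groups alone gave 52 lower, 11 synergy lower and 79 for genotype in sham. With detected genes as a covariate there were 285 and 112, 235 and 48, 366, 38, 3114, 847, 1372 and 195. At an adjusted p under 0.01 there were 30 and 4, 30 and 0, 293, 1, 795, 981, 197 and 4. Without WT sham replicates 1 and 3 there were 535 and 563, 177 and 35, 331, 78, 3220, 1586, 797 and 1371. With an interaction interval within -1 and 1 there were 484 injury-only and 2 genotype-only genes.

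Without each library in turn, the same 10 counts ran from 31 to 255, 4 to 411, 31 to 114, 0 to 51, 418 to 1944, 1 to 19, 869 to 3662, 1240 to 6513, 194 to 970 and 2 to 974. Whether the replicate numbers pair the samples was not settled, since deviations within groups of 3 are a weak guide. 5 of 18 same-numbered pairs had a correlation of deviations over 0.1, in a range of -0.278 to 0.277. So did 7 of 36 pairs with different numbers. A replicate block gave 70 lower, 11 synergy lower, 13 genotype-only and 71 for genotype in sham, and kept 55 of the 57 and 24 of the 26. The cause of these shifts was not tested. 3 libraries per group gave a median standard error of 0.40 for the log2 interaction, which limits the sizes that can be called. WT sham, where replicates 1 and 3 stood apart on detected genes and replicate 2 on CT010467.1, enters every interaction.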

Other observations

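4 lists not described above held 0 calls for the interaction with edgeR and DESeq2, apart from 1 higher with DESeq2 for the integrated stress response: satellite glia, endothelial and fibroblast, integrated stress response and cholesterol synthesis genes had 2, 2, 4 and 4 genes at an unadjusted p under 0.05 and 2, 7, 4 and 4 called with limma-voom. Satellite glia markers had a median of -0.28 over 10 genes, with Apoe at -0.27 ± 0.20 (adjusted p = 0.729). Endothelial and fibroblast markers had -0.41 over 12, with Dcn at -0.38 ± 0.30 (adjusted p = 0.751) and Col1a2 at 0.28 ± 0.35 (adjusted p = 0.86). Integrated stress response genes had 0.43 over 13, with Asns at 0.50 ± 0.31 (adjusted p = 0.652) and Phgdh at -0.62 ± 0.20 (adjusted p = 0.275).

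Cholesterol synthesis genes had a median of -0.27 over 14, with 6 of 14 lower in each KO injured library than in the 9 others, as were 2.97% of all genes. Hmgcs1, a synthase of that route, had 564, 661 and 757 CPM in KO injured ganglia, 1005, 943 and 937 in KO sham, 1124, 1117 and 1104 in WT injured and 1180.1, 1052 and 1150.5 in WT sham ganglia (-0.53 ± 0.17, adjusted p = 0.287), and Fdft1 0.15 ± 0.25 (adjusted p = 0.905). Skeletal muscle genes had a median of 1.96 over 8, with 0 called by edgeR or DESeq2, 1 by limma-voom and 0 at an unadjusted p under 0.05; Acta1, skeletal actin, ran from 5.49 to 1541 CPM within the WT sham libraries (1.70 ± 2.30, adjusted p = 0.878), and Pvalb, shared with proprioceptive neurons, had 1.25 ± 0.64 (adjusted p = 0.559).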
